A study of Brachypodium distachyon with 12 samples.

Results

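Gene expression was compared between whole roots and whole shoots of 2-week-old seedlings of Brachypodium distachyon, a slender wild grass related to wheat and barley. All plants were of the wild-type line Bd21-3. The 3 root libraries and 3 shoot libraries were taken by the labelled tissue and age, which is 6 of the 12 libraries of a series whose title names dopamine biosynthesis in plants. The other 6 libraries are roots and shoots of week 4, each also with 3 replicates. All plants grew in pairs, 2 seedlings on a floating holder in each vessel, with MS salts at 0.5 × strength (40 mL) as the medium. Days had 16 h of light (150 μmol m-2 s-1) and nights lasted 8 h, with 22 °C and a humidity of 50%. Replicates were different plants, and the labels do not say how many plants a library pooled, or whether a root and a shoot library of 1 number share plants. The labels do not say whether light reached the roots in these vessels. Of 39068 genes in the table, 26463 had enough reads to be tested, and values are CPM, counts per 1e+06 of the scaled library, always given in the order of replicates 1, 2 and 3.

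The young grass seedling divides its work between the organs. The shoot captures light with chlorophyll-bearing antenna proteins, fixes carbon in chloroplasts, exports sugar and seals its surface with a waxy cuticle. The root lives on that sugar, takes up water and ions, and forces solutes through living cells with the Casparian strip, a band of lignin in the wall of the endodermis, and with the waxy polymer suberin. Grasses obtain iron in a way of their own: roots make nicotianamine, convert it to mugineic acids, secrete these and take the iron complex back up. These are textbook roles and not results of the present data. In whole organs, fewer cells of a type and less RNA per cell cannot be told apart.

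Total counts were 17261299 to 23116808 in the root libraries and 20044972 to 24186744 in the shoot libraries, and log2 CPM of replicates of an organ correlated at 0.974 to 0.991 (Pearson). That correlation runs over genes, which share libraries and are no replicates. The labelled organs matched their defining markers. The 10 tested genes with a root cap domain summed to 667 to 792 CPM in roots and to 1.19 to 2.97 CPM in shoots. The 6 RuBisCO small chain genes summed to 25418 to 32948 CPM in shoots and to 642 to 1427 CPM in roots. Among markers of other tissues, the seed storage and oil-body genes summed to 93.1 to 129 CPM in roots and 74.8 to 93.7 CPM in shoots, mostly from a single glutelin gene (BdiBd21-3.2G0474300) that was at 76.4, 82.9 and 80.8 CPM in roots and 85.8, 71.9 and 66.2 CPM in shoots and was not called (adjusted p = 0.518). Of the 13 tested seed storage and oil-body genes, 5 were higher in roots (38.5%, against 28.4% of all tested genes), each at least 4-fold. Of the others, 1 was lower in roots (7.69%, against 27.7%) and 7 were not called. The floral and pollen genes summed to 174 to 206 CPM in roots and 177 to 182 CPM in shoots. In both organs replicate 1 stood apart from replicates 2 and 3, and the chi-square of their counts, divided by its degrees of freedom, was 18.3 to 32.7 in pairs that include it and 6.66 and 12.2 in the pairs without it. Results that rest on replicate 1 are marked where they occur.

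Root and shoot differed widely. At an adjusted p under 0.05 (edgeR quasi-likelihood F test, Benjamini-Hochberg over all tested genes), 14858 genes or 56.1% of those tested were called, 7522 (28.4%) higher in roots and 7336 (27.7%) lower. The log2 fold change, called log2 ratio beside single genes, is root minus shoot throughout, so a negative value is higher in shoots. The median over all tested genes was 0.01. At 4-fold or more the split favoured the shoot, with 2470 genes higher in roots (9.33%) and 3306 higher in shoots (12.5%). At 16-fold or more the counts were 1090 and 1285, and at 64-fold or more 535 and 641. In a test against a fold change of 2 itself, 2953 genes were higher in roots and 4002 lower. A group of 49 genes had no read in any shoot library and at least 10 CPM in roots, and 47 had no read in any root library and at least 10 CPM in shoots.

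**Figure D1:**
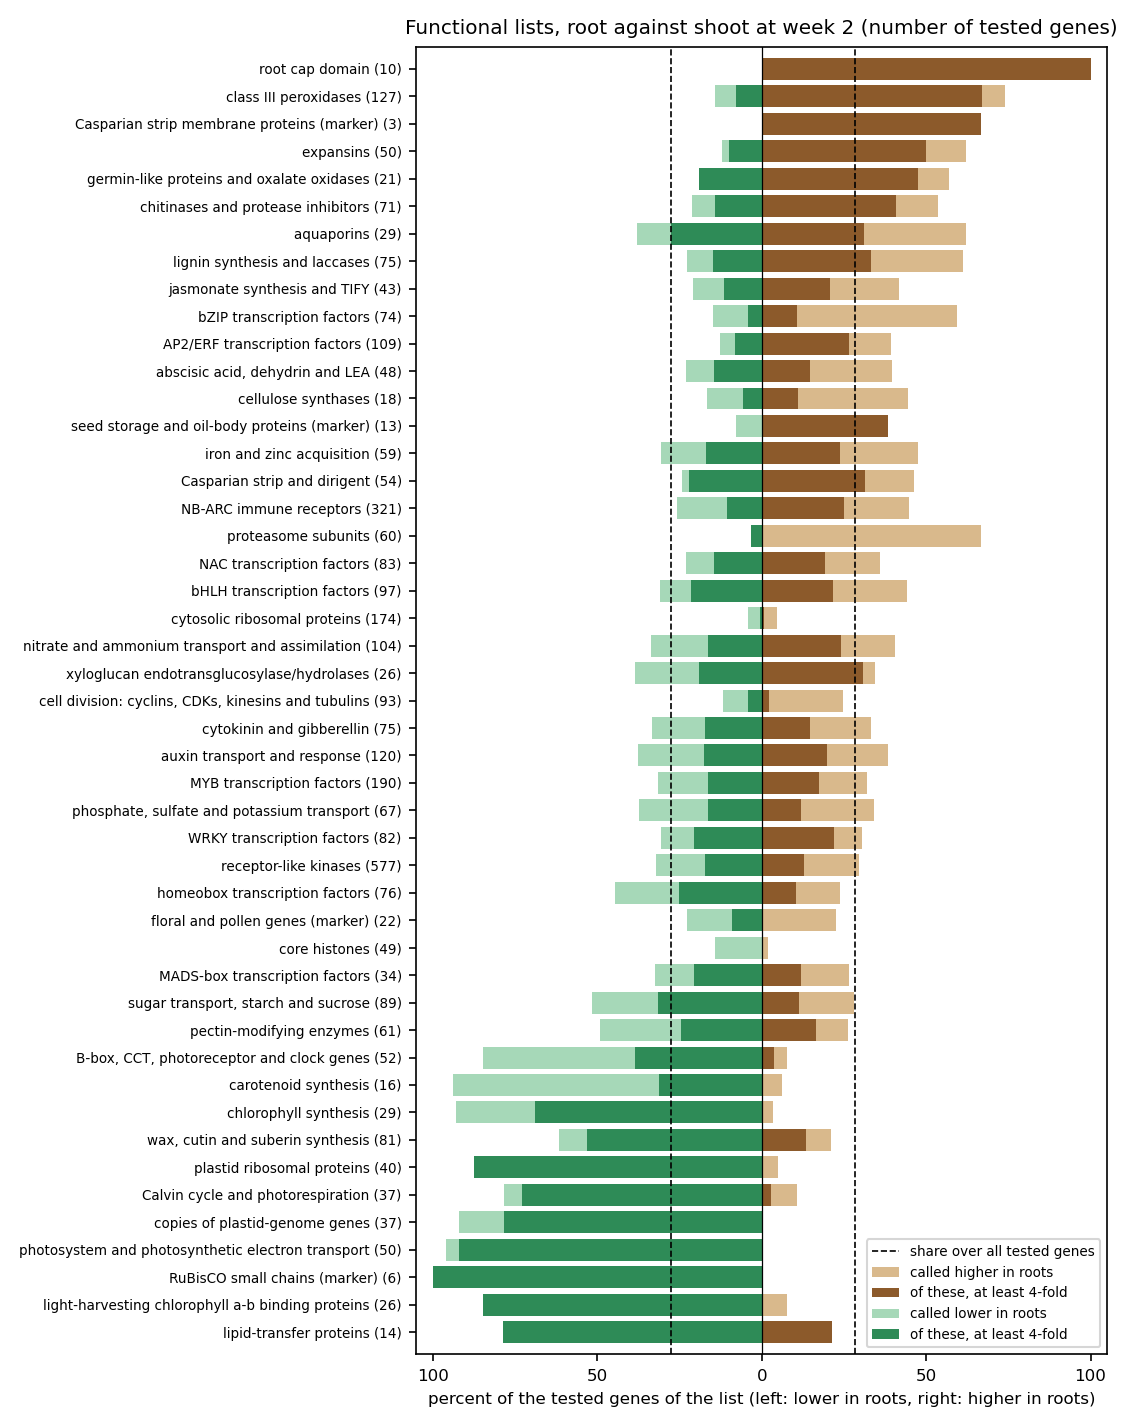
Percent of the tested genes of each functional list that were called higher in roots (right, brown) or lower in roots (left, green), with the darker part at least 4-fold and the number of tested genes in parentheses; dashed lines mark the shares over all tested genes, 28.4% and 27.7%. All 10 tested root cap genes lie on the right and 48 of the 50 photosystem genes on the left, while cytosolic ribosomal proteins show few calls on either side.

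The 5 highest fold changes among abundant, described genes without overlap between organs belonged to a root cap gene (BdiBd21-3.2G0795500, chromosome 2, 58332796 to 58334460), 3 genes named Peroxidase 2 and a laccase. The root cap gene had 146, 167 and 159 CPM in roots and no read in shoots, at least 3150.2-fold higher against a floor of 3 counts over the shoot group (adjusted p = 1.04e-08). Class III peroxidases, of which Peroxidase 2 is one by name, use hydrogen peroxide to couple lignin monomers or loosen walls. Peroxidase 2 (BdiBd21-3.1G0261200, chromosome 1, 16111626 to 16113180) had 46.9, 186 and 186 CPM in roots and none in shoots, and replicate 1 was the lowest root library (adjusted p = 2.80e-04). The laccase (BdiBd21-3.3G0779700) had 43.9, 76.3 and 103 CPM in roots and none in shoots, at least 1486-fold higher (adjusted p = 3.31e-05).

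By the same rule, the 5 lowest fold changes belonged to genes of mixed names. Dirigent protein 19 (BdiBd21-3.4G0165900, chromosome 4, 11175613 to 11176516), of a family that steers the coupling of lignin-type phenols, had no read in roots and 123, 162 and 163 CPM in shoots, at least 3412-fold higher (adjusted p = 2.21e-05). MLP-like protein 423 (BdiBd21-3.5G0161400) had no read in roots and 148, 161 and 127 CPM in shoots, with adjusted p = 0.00245. A polyamine oxidase gene (BdiBd21-3.3G0287700), of enzymes that break down polyamines, also had no read in roots, and its shoot libraries spread from 19.9 CPM in replicate 1 to 151 CPM in replicate 2 (adjusted p = 0.00213, but 0.0754 and not called with limma-voom). An MFS18 protein gene (BdiBd21-3.2G0117500) and BURP domain-containing protein 3 (BdiBd21-3.2G0626600) had 1 read each over the 3 root libraries, against 373, 347 and 328 CPM and 322, 251 and 249 CPM in shoots. The call of the MFS18 gene (adjusted p = 5.16e-04) was lost with limma-voom (adjusted p = 0.056).

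**Figure D2:**
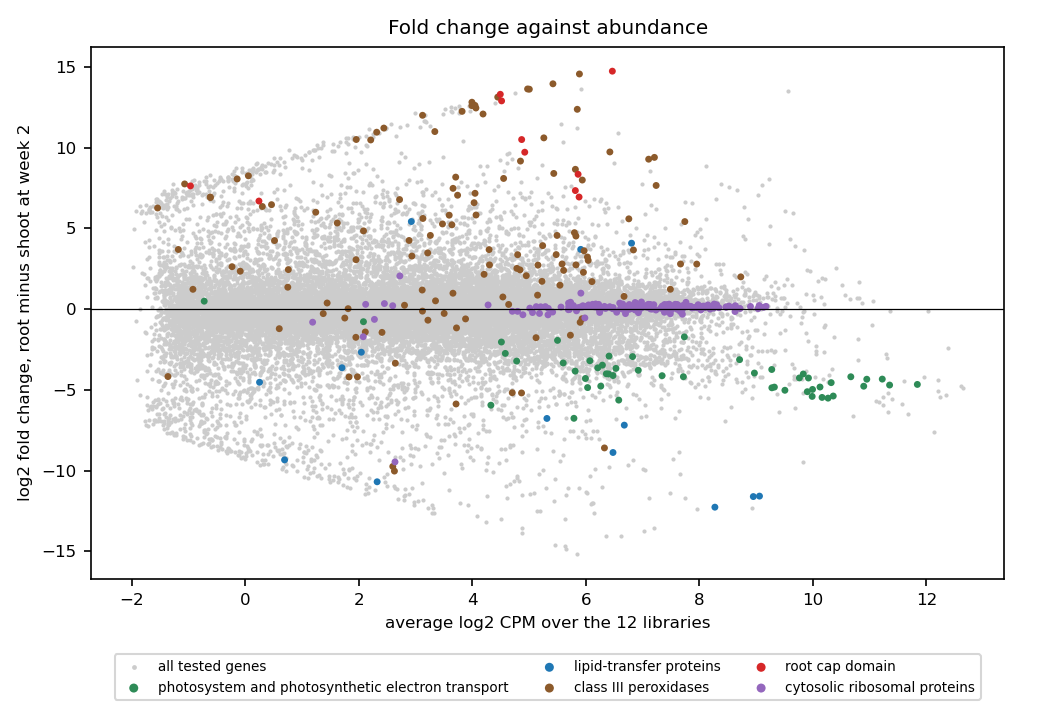
Log2 fold change (root minus shoot at week 2, vertical axis) against average log2 CPM over the 12 libraries (horizontal axis) for all tested genes in grey and 5 lists in colour; fitted folds at the outer edges belong to genes with almost no read in 1 organ and depend on the prior count. Photosystem genes lie between -6.77 and 0.49, cytosolic ribosomal proteins cluster at their median of 0.13, and root cap genes lie at 6.70 or above.

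Photosynthesis genes were lower in roots with few exceptions. Of 26 tested light-harvesting chlorophyll a-b binding proteins, the antenna of the photosystems, 22 were lower in roots and 2 higher, with a median log2 fold change of -5.36. Their summed level was 73124 ± 8310.3 CPM in shoots (SD, n = 3) and 1744 ± 594 CPM in roots, a ratio of 41.9. The most counted of them, chlorophyll a-b binding protein 1 (BdiBd21-3.4G0519700, chromosome 4, 42594857 to 42597516), was at 258, 414 and 521 CPM in roots and 12841, 12483 and 10404 CPM in shoots. All shoot libraries were far above all root libraries, and the root value was lowest in replicate 1 (log2 ratio -4.90, SE 0.28, adjusted p = 3.54e-08). The table also lists a protein kinase domain for this gene model. Among photosystem and electron transport genes, 48 of 50 were lower in roots and none higher, 46 of them at least 4-fold. Oxygen-evolving enhancer protein 1 (BdiBd21-3.1G0753800), which shields the water-splitting centre of photosystem II, was at 149, 302 and 371 CPM in roots and 7070.1, 7575 and 6232 CPM in shoots. Its groups did not overlap (log2 ratio -4.67, SE 0.32, adjusted p = 1.70e-07).

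Roots kept a small but measurable photosynthetic signal that varied between replicates. The summed level of the light-harvesting genes in roots was 1.53%, 2.48% and 3.14% of the shoot mean in replicates 1, 2 and 3. The RuBisCO small chains gave the same order at 2.13%, 3.76% and 4.73%. In the reverse direction the root cap genes reached 0.415%, 0.260% and 0.166% of the root mean in the shoot libraries. Whether carry-over of tissue accounts for any of these levels was not tested.

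Carbon fixation and pigment synthesis had the same direction. Of 22 tested Calvin cycle enzyme genes, 20 were lower in roots and 2 higher, with a median of -4.26. The RuBisCO small chain PWS4.3 (BdiBd21-3.4G0116800, chromosome 4, 7499269 to 7500283), a subunit of the carbon-fixing enzyme, was at 305, 446 and 565 CPM in roots and 12745, 13201 and 9844 CPM in shoots (log2 ratio -4.76, SE 0.27, adjusted p = 3.90e-08). Plastid transketolase (BdiBd21-3.1G0687600), which serves the Calvin cycle and also the pentose phosphate pathway, kept a much higher root level. It was at 588, 674 and 694 CPM in roots and 2154, 2078 and 2112 CPM in shoots, again with no overlap (log2 ratio -1.70, SE 0.12, adjusted p = 2.60e-07). Photorespiration, the salvage of the product of RuBisCO's reaction with oxygen, had 9 of 15 genes lower in roots and 2 higher. Its most counted gene, the mitochondrial glycine dehydrogenase (BdiBd21-3.2G0614200), was at 359.6, 403 and 448 CPM in roots and 2414, 2635 and 3222 CPM in shoots, lower in roots with log2 ratio -2.77, SE 0.22, adjusted p = 4.98e-07.

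Of 29 chlorophyll synthesis genes, 27 were lower in roots and 1 higher, with a median of -2.36. The magnesium chelatase subunit ChlH (BdiBd21-3.1G0251200), which commits the pathway to chlorophyll, was at 257, 279.5 and 316 CPM in roots and 1789.7, 1966 and 1419 CPM in shoots. Roots therefore held a lower level in every library (log2 ratio -2.60, SE 0.16, adjusted p = 6.49e-08). Carotenoid synthesis had 15 of 16 genes lower in roots. Log2 fold changes of the list ran from -5.15 to 1.12 with a median of -1.79, and the lowest was that of zeaxanthin epoxidase. Zeaxanthin epoxidase (BdiBd21-3.5G0147500), which makes the precursors of abscisic acid and acts in light protection, was at 13.9, 16.6 and 19.8 CPM in roots and 625, 617 and 541 CPM in shoots. That is a much larger difference (log2 ratio -5.15, SE 0.20, adjusted p = 2.91e-09) than for zeta-carotene desaturase (BdiBd21-3.1G0722600), an early step, which was at 38.7, 41.3 and 47.0 CPM in roots and 133, 139 and 133 CPM in shoots (log2 ratio -1.67, SE 0.10, adjusted p = 6.40e-08). The difference between these 2 folds was not tested.

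Plastid and cytosolic ribosomes went separate ways. Of 40 plastid ribosomal protein genes, 35 were lower in roots, all at least 4-fold, and 2 higher. Their median of -3.11 sits close to the lowest member at -3.48. The most counted one, 50S ribosomal protein L12-2 (BdiBd21-3.2G0583400), was at 77.1, 88.9 and 108 CPM in roots and 966, 959 and 949 CPM in shoots (log2 ratio -3.39, SE 0.14, adjusted p = 3.60e-09). Of 174 cytosolic ribosomal protein genes, 8 were higher in roots and 7 lower, 8.62% called in all against the background of 56.1%, with a median of 0.13. Small uniform shifts of this kind depend on scaling, and upper-quartile scaling gave 25 calls, 18 of them higher in roots. The 40S ribosomal protein S4 (BdiBd21-3.2G0445500) was at 839, 709 and 699.9 CPM in roots and 613, 694 and 693 CPM in shoots and did not pass the test (adjusted p = 0.344).

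Genes of the table whose names are those of the plastid genome itself also had reads. Of 206 such genes, 37 passed the filter on low counts and 34 were lower in roots, with a summed level of 420.2 to 574 CPM in shoots and 44.9 to 50.7 CPM in roots. Without the filter on low counts 53 were called, all lower in roots. They lie on nuclear chromosomes in this table. Reads from the chloroplast and from a nuclear copy cannot be told apart here, and the sources used here do not say how reads that match several places were treated. One exception was an ATP synthase subunit a gene (BdiBd21-3.2G0153100) at 23.2, 19.1 and 11.9 CPM in roots and 14.6, 12.8 and 10.3 CPM in shoots, not called at adjusted p = 0.0819 and higher in roots with replicate pairs as a block (adjusted p = 0.0335) or without root replicate 3 (adjusted p = 0.0114).

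**Figure D3:**
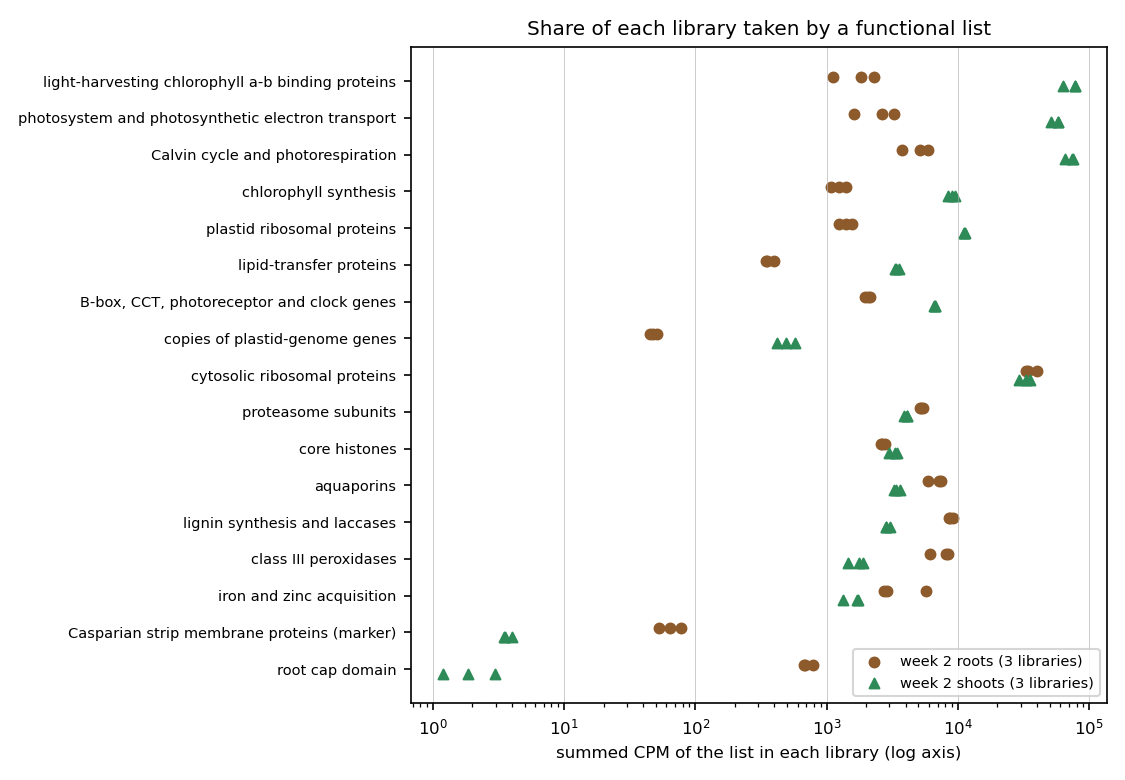
Summed CPM of 17 functional lists in each of the 6 libraries of week 2 (log axis; circles roots, triangles shoots). The mean shoot level is 41.9 times the root level for light-harvesting genes and 7.22 times for chlorophyll synthesis, cytosolic ribosomal proteins and core histones lie close together, and iron and zinc acquisition has 1 root library, replicate 1 at 5756 CPM, above the other 2.

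Light sensing and the clock were tilted to the shoot with moderate folds. Of 52 tested photoreceptor, B-box, CCT-domain and clock genes, 44 were lower in roots and 4 higher, 20 of the former at least 4-fold. Of 8 phytochrome, cryptochrome and phototropin genes 7 were lower in roots. The blue-light receptor phototropin-2 (BdiBd21-3.5G0084800) was at 28.9, 38.4 and 32.5 CPM in roots and 458, 466 and 476 CPM in shoots (log2 ratio -3.81, SE 0.15, adjusted p = 3.04e-09). CONSTANS-LIKE 16 (BdiBd21-3.1G0151100), a B-box transcription factor by name, was at 10.6, 14.3 and 17.6 CPM in roots and 539, 693 and 713 CPM in shoots (log2 ratio -5.52, SE 0.27, adjusted p = 1.17e-08). Of 13 clock genes 10 were lower in roots and none higher. GIGANTEA (BdiBd21-3.2G0068800), a clock-controlled regulator of flowering time, was close between organs at 474, 569.5 and 629 CPM in roots and 838, 713 and 729.9 CPM in shoots. Its call (log2 fold change -0.45, adjusted p = 0.0207) was lost with replicate pairs as a block (adjusted p = 0.0664), without root replicate 1 (0.0661) and without shoot replicate 1 (0.0655). The labels give no hour of harvest. A bHLH factor named PIF1 (BdiBd21-3.1G0186500), a light-regulated repressor of greening in Arabidopsis, was at 0.787, 2.15 and 3.80 CPM in roots and 59.2, 74.2 and 97.6 CPM in shoots (log2 ratio -5.12, SE 0.51, adjusted p = 1.22e-05). GLK2 (BdiBd21-3.2G0108800, chromosome 2, 6650607 to 6656701), a GOLDEN2-like factor that drives chloroplast development in maize and rice, was at 2.80, 1.42 and 1.01 CPM in roots and 177, 184 and 184 CPM in shoots. Every shoot library was far above every root library in this gene (log2 ratio -6.69, SE 0.35, adjusted p = 4.01e-08).

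Surface lipid genes leaned to the shoot. Of 81 genes of wax, cutin and suberin synthesis, 50 were lower in roots, 43 of them at least 4-fold, and 17 were higher. The branches of the list did not go one way. Of 10 ECERIFERUM genes, which act in making cuticular wax, 8 were lower in roots and none higher. ECERIFERUM 26-like (BdiBd21-3.5G0279300) was at 1.18, 0.690 and 0.304 CPM in roots and 148, 147 and 129 CPM in shoots (log2 ratio -7.57, SE 0.29, adjusted p = 3.48e-09). Of 26 3-ketoacyl-CoA synthases, which lengthen fatty acids for wax and suberin, 19 were lower in roots and 4 higher. The 3-ketoacyl-CoA synthase 10 (BdiBd21-3.1G0974900, chromosome 1, 70988211 to 70991774) was at 0.219, 0.498 and 0.152 CPM in roots and 316, 304 and 265 CPM in shoots, with very few reads in any root library (log2 ratio -9.90, SE 0.27, adjusted p = 1.04e-09, and -10.57 without root replicate 2). Fatty acyl-CoA reductases, which make fatty alcohols, had 5 of 7 lower in roots, among them reductase 3 (BdiBd21-3.4G0528600) at 0.612, 0.920 and 0.203 CPM in roots and 119, 93.1 and 129 CPM in shoots (log2 ratio -7.55, SE 0.38, adjusted p = 2.86e-08).

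Other families of this list, some of them tied to suberin, went both ways and included root-high members. CYP86 fatty acid hydroxylases had 3 higher and 4 lower in roots of 8, with a median of -0.67. Glycerol-3-phosphate acyltransferases had 4 higher and 7 lower of 13, all 7 at least 4-fold, with a median of -2.24. Of 2 omega-hydroxypalmitate O-feruloyl transferases 1 was higher in roots and the other, at -2.40, was not called. Cytochrome P450 86B1 (BdiBd21-3.3G0383000), a fatty acid hydroxylase that acts in suberin synthesis in Arabidopsis, was at 113, 133 and 134 CPM in roots and 16.1, 17.9 and 14.4 CPM in shoots and higher in roots (log2 ratio 2.97, SE 0.25, adjusted p = 1.84e-06). An omega-hydroxypalmitate O-feruloyl transferase (BdiBd21-3.5G0014700), which adds ferulate to suberin monomers, was at 226, 292 and 291 CPM in roots and 42.3, 42.8 and 38.3 CPM in shoots and higher in roots (log2 ratio 2.71, SE 0.22, adjusted p = 8.91e-07). Long chain acyl-CoA synthetase 4 (BdiBd21-3.2G0579400), which activates fatty acids, differed less, at 344, 346 and 330.3 CPM in roots and 207, 218 and 211 CPM in shoots (log2 ratio 0.68, SE 0.09, adjusted p = 4.26e-05).

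Lipid-transfer proteins, small secreted proteins that carry lipids in the wall, split sharply. All 14 tested members were called, 11 lower and 3 higher in roots, each at least 4-fold. Lipid-transfer protein 2B (BdiBd21-3.4G0361900, chromosome 4, 31300783 to 31301394) was at 0.568, 0.192 and 0.253 CPM in roots and 1076, 1072 and 1063 CPM in shoots (log2 ratio -11.61, SE 0.35, adjusted p = 1.24e-09, and -12.22 without root replicate 1). Lipid-transfer protein 2 (BdiBd21-3.2G0231400, chromosome 2, 15526626 to 15527216) had the opposite pattern at 222, 232 and 204 CPM in roots and 12.8, 15.2 and 10.8 CPM in shoots (log2 ratio 4.09, SE 0.17, adjusted p = 4.08e-09). Neither gene overlapped between organs. A similar opposition was seen for germin-like proteins, wall proteins of which some are oxalate oxidases that release hydrogen peroxide. Oxalate oxidase GF-2.8 (BdiBd21-3.1G0158800, chromosome 1, 9008428 to 9009517) was at 355, 732 and 905 CPM in roots and 8.04, 6.37 and 10.6 CPM in shoots, higher in roots (log2 ratio 6.32, SE 0.49, adjusted p = 1.08e-06). Germin-like protein 8-14 (BdiBd21-3.3G0496800, chromosome 3, 40130776 to 40131777) was at 0.350, 0.307 and 0 CPM in roots and 1206, 1230.1 and 1197 CPM in shoots, and was thus shoot-high (log2 ratio -12.32, SE 0.58, adjusted p = 1.89e-08). Over the list, 12 of 21 tested germin-like genes were higher in roots and 4 lower.

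Homeobox genes of the ROC class, relatives of the Arabidopsis epidermal factor GLABRA2, went with the shoot. Of 10 tested ROC genes, 8 were lower in roots and none higher. ROC1 (BdiBd21-3.3G0204900) was at 0.0874, 0.0383 and 0.0507 CPM in roots and 102, 84.0 and 92.1 CPM in shoots, with almost no read in roots (log2 ratio -10.50, SE 0.31, adjusted p = 1.13e-09). Of 11 BEL1-like genes 5 were lower and 2 higher, and BEL1-like homeodomain protein 2 (BdiBd21-3.1G0131000) was at 27.5, 28.9 and 27.1 CPM in roots and 232, 219.9 and 195 CPM in shoots (log2 ratio -2.95, SE 0.11, adjusted p = 2.66e-09). Of 9 knotted-1-like genes, of a class known from shoot meristems, 4 were lower and 1 higher. WUSCHEL-related genes had 4 of 7 higher in roots and 2 lower. In the HOX class the calls were mixed, with HOX5 (BdiBd21-3.3G0471300) higher in roots at 183, 242 and 263 CPM in roots and 79.2, 72.9 and 71.3 CPM in shoots (log2 ratio 1.62, SE 0.14, adjusted p = 1.21e-06) and HOX16 (BdiBd21-3.3G0743300) lower at 168, 173 and 146 CPM in roots and 445, 398 and 453 CPM in shoots (log2 ratio -1.41, SE 0.12, adjusted p = 1.12e-06).

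**Figure D4:**
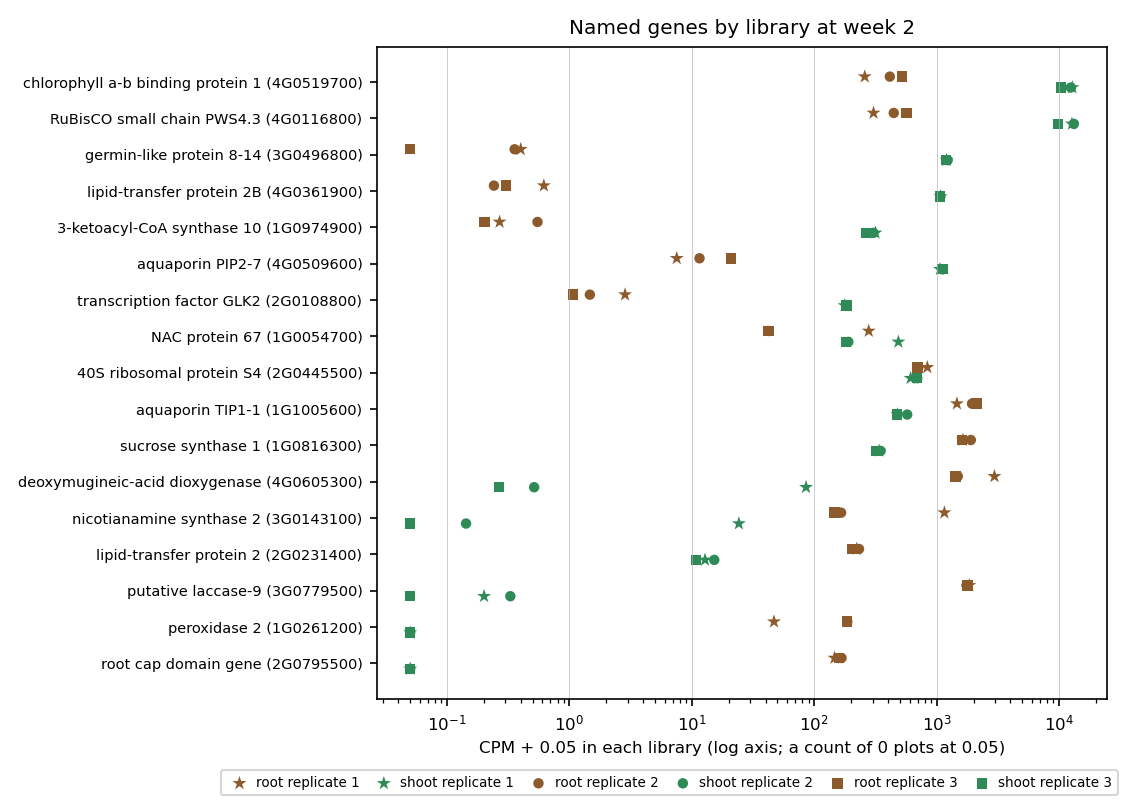
CPM + 0.05 of 17 named genes in each of the 6 libraries (log axis; brown roots, green shoots; a star is replicate 1, a circle replicate 2 and a square replicate 3), with a count of 0 drawn at 0.05. Putative laccase-9 is at 1847, 1752 and 1786 CPM in roots and 0.151, 0.279 and 0 CPM in shoots, whereas the stars of nicotianamine synthase 2 and NAC protein 67 lie above the other replicates of the same organ.

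Starch and sugar genes divided by role. No gene among 17 tested starch synthases, branching enzymes and ADP-glucose pyrophosphorylases was higher in roots, and 15 were lower. The ADP-glucose pyrophosphorylase large subunit 1 (BdiBd21-3.1G0129800), the gate enzyme of starch synthesis, was at 24.3, 26.5 and 35.5 CPM in roots and 611, 535 and 443 CPM in shoots (log2 ratio -4.20, SE 0.19, adjusted p = 6.99e-09). A beta-amylase (BdiBd21-3.1G0333500), which releases maltose from starch, was at 3.54, 2.41 and 2.48 CPM in roots and 372, 294 and 182 CPM in shoots (log2 ratio -6.65, SE 0.50, adjusted p = 1.16e-06). Of 13 SWEET sugar exporters 8 were lower in roots and 3 higher. SWEET13 (BdiBd21-3.4G0103700), named for a sucrose exporter that feeds the phloem in maize, was at 75.8, 10.8 and 8.57 CPM in roots and 838, 745 and 606 CPM in shoots, with root replicate 1 above the other root libraries but below all shoots (log2 ratio -4.52, SE 0.81, adjusted p = 8.22e-04, and -6.22 without root replicate 1). Sucrose synthases and fructan enzymes went the other way. Of 6 sucrose synthases, which cleave sucrose in sink tissue, 4 were higher in roots and none lower. Sucrose synthase 1 (BdiBd21-3.1G0816300, chromosome 1, 60267657 to 60273920) was at 1639.5, 1902 and 1613 CPM in roots and 339, 349 and 318 CPM in shoots (log2 ratio 2.36, SE 0.39, adjusted p = 3.83e-04). Both tested fructan enzymes were higher in roots, and sucrose:sucrose 1-fructosyltransferase (BdiBd21-3.1G0694500), which starts the chain of the storage sugar fructan, was at 87.7, 194 and 188 CPM in roots and 33.4, 35.9 and 37.6 CPM in shoots (log2 ratio 2.13, SE 0.29, adjusted p = 8.00e-05). Cytosolic invertase 1 (BdiBd21-3.3G0604400) was also higher in roots at 226, 238 and 222 CPM in roots and 98.4, 109 and 108 CPM in shoots (log2 ratio 1.12, SE 0.10, adjusted p = 2.31e-06), within a list of 8 invertases in which 4 were lower and 2 higher.

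The root's own identity genes were few but sharp. All 10 tested root cap genes were higher in roots, each at least 4-fold, with a median of 9.04. Of 3 Casparian strip membrane protein genes, which scaffold the strip, 2 were higher in roots. Casparian strip membrane protein 2 (BdiBd21-3.3G0171800), for which the table also lists an acetyltransferase domain, was at 27.1, 44.3 and 35.6 CPM in roots and 3.07, 3.39 and 3.39 CPM in shoots (log2 ratio 3.44, SE 0.19, adjusted p = 2.40e-08). The wider CASP-like family was not root-bound, with 14 of 30 higher and 6 lower in roots. CASP-like protein 2A1 (BdiBd21-3.5G0068100) was at 1.22, 0.843 and 0.913 CPM in roots and 133, 119 and 116 CPM in shoots, lower in roots (log2 ratio -6.94, SE 0.20, adjusted p = 1.08e-09). Among dirigent proteins 11 of 24 were higher and 7 lower, and dirigent protein 21 (BdiBd21-3.4G0338700) was at 287, 289 and 298 CPM in roots and 59.5, 69.4 and 69.3 CPM in shoots, higher in roots (log2 ratio 2.14, SE 0.22, adjusted p = 6.42e-06).

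Class III peroxidases were strongly tilted to the root. Of 127 tested genes out of 148, 94 were higher in roots (74.0% against a background of 28.4%), 85 of them at least 4-fold, and 18 were lower, with a median of 3.48. Their summed level was 7545 ± 1204 CPM in roots (SD, n = 3) and 1701 ± 225 CPM in shoots. The most counted one in roots, Peroxidase 1 (BdiBd21-3.1G0233800), was at 512, 695 and 602 CPM in roots and 36.8, 76.0 and 339.9 CPM in shoots, with shoot replicate 3 far above the other 2 shoot libraries (log2 ratio 2.00, SE 0.65, adjusted p = 0.0238). Its call was lost without root replicate 2 (adjusted p = 0.0587) or shoot replicate 2 (0.0754) and in the week 2 libraries alone (0.116), and its log2 fold change was 3.36 without shoot replicate 3. Peroxidase 52 (BdiBd21-3.1G0537900) was one of the shoot-high exceptions at 0.0874, 0.345 and 1.01 CPM in roots and 217, 138 and 186 CPM in shoots (log2 ratio -8.60, SE 0.51, adjusted p = 1.67e-07, and -9.62 without root replicate 3).

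A block of peroxidase genes lay side by side. The longest run of neighbouring tested genes that were each at least 4-fold higher in roots held 7 genes on chromosome 1, from 16100705 to 16155543, of which 5 are named Peroxidase 2 and 1 Peroxidase 5, and the last, BdiBd21-3.1G0261800, has no description. The run was picked for its length, so its values are a description. In roots, BdiBd21-3.1G0261300 had 80.5, 258 and 232 CPM, BdiBd21-3.1G0261400 had 10.2, 37.4 and 36.5 CPM and BdiBd21-3.1G0261500 had 16.3, 45.3 and 45.8 CPM. Shoot libraries were at 0 in all but 1 of the 4 most counted peroxidases of the run, the exception being BdiBd21-3.1G0261300 at 0.603, 0 and 0.0539 CPM. Root replicate 1 was the lowest in BdiBd21-3.1G0261200 at 46.9 CPM, against 186 CPM in both other root libraries. Near-identical neighbours can share reads, so the division of reads among these genes is uncertain. Over all genes, the next tested gene on the chromosome was also at least 4-fold higher in roots for 22.0% of the genes called so, against 9.33% of all tested genes. For the shoot-high genes the figure was 23.8% against 12.5%. The longest shoot-high run held 11 genes on chromosome 1, from 3936694 to 3979031, of which 10 carry plastid-genome names. These genes had few reads even in shoots, with mean shoot levels from 0.469 CPM (BdiBd21-3.1G0074300) to 5.70 CPM (BdiBd21-3.1G0074500).

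Lignin pathway genes were more often root-high than shoot-high. Of 75 tested genes 46 were higher in roots and 17 lower, with a summed level of 8514 to 9101 CPM in roots and 2816 to 3044 CPM in shoots. Of 9 phenylalanine ammonia-lyases, which open the pathway, 8 were higher and none lower. The most counted one (BdiBd21-3.3G0653500, chromosome 3, 50585136 to 50588934) was at 2072, 1670.1 and 1834 CPM in roots and 664, 679 and 618 CPM in shoots (log2 ratio 1.51, SE 0.21, adjusted p = 8.29e-05). Cinnamoyl-CoA reductase 1 (BdiBd21-3.2G0179900), which turns activated acids into aldehydes, was at 273, 374 and 361 CPM in roots and 37.3, 30.0 and 38.9 CPM in shoots (log2 ratio 3.25, SE 0.23, adjusted p = 2.78e-07). Its subgroup had 11 higher and 3 lower of 18. Cinnamyl alcohol dehydrogenase 8A (BdiBd21-3.4G0418500), which makes the alcohol monomers, was at 305, 442 and 379 CPM in roots and 118, 90.5 and 88.7 CPM in shoots (log2 ratio 1.92, SE 0.16, adjusted p = 9.30e-07). Its subgroup was divided, with 4 of 7 higher in roots, none at least 4-fold, and 3 lower, all at least 4-fold. Both tested O-methyltransferases were lower in roots, with a median of -2.92. The more counted, caffeoyl-CoA O-methyltransferase 1 (BdiBd21-3.1G0639400), was at 46.3, 39.3 and 40.4 CPM in roots and 70.5, 67.7 and 76.7 CPM in shoots (log2 ratio -0.77, SE 0.12, adjusted p = 1.65e-04). Of 23 tested laccases, copper oxidases that polymerise the monomers, 14 were higher and 5 lower in roots. The putative laccase-9 (BdiBd21-3.3G0779500, chromosome 3, 58446142 to 58448774) was at 1847, 1752 and 1786 CPM in roots and 0.151, 0.279 and 0 CPM in shoots. Its root libraries were nearly even, while 1 shoot library had no read (log2 ratio 13.50, adjusted p = 6.85e-09, and 14.36 without shoot replicate 2).

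Wall-loosening and wall-building families differed in their balance. Of 50 tested expansins, which let walls slide in growing cells, 31 were higher in roots and 6 lower, with a median of 2.48. Alpha-expansins gave 19 higher and 2 lower of 26, with a median of 6.57. Yet the most counted alpha-expansin, Expansin-A2 (BdiBd21-3.2G0686100), was at 95.4, 75.0 and 84.4 CPM in roots and 81.7, 62.6 and 42.8 CPM in shoots and not called (adjusted p = 0.064). It was called higher in roots with replicate pairs as a block (adjusted p = 0.0422), with upper-quartile scaling (0.043), with limma-voom (0.0387) and without shoot replicate 1 (0.00819). Expansin-B4 (BdiBd21-3.1G1045000) was higher in roots at 254, 161 and 184 CPM in roots and 30.3, 27.4 and 19.0 CPM in shoots (log2 ratio 2.96, SE 0.77, adjusted p = 0.00809), and Expansin-B3 (BdiBd21-3.3G0433700) lower at 56.6, 67.9 and 42.3 CPM in roots and 115, 157 and 101 CPM in shoots (log2 ratio -1.16, SE 0.30, adjusted p = 0.00662). Xyloglucan endotransglucosylase/hydrolases, which cut and rejoin a wall polymer, were divided, with 9 of 26 higher and 10 lower. Pectin-modifying enzymes tilted to the shoot, with 30 of 61 lower in roots and 16 higher. Log2 fold changes of that list ran from -8.60 to 7.76. Polygalacturonase BdiBd21-3.2G0237400 was lower in roots, at 0.612, 0.498 and 0.913 CPM in roots and 166, 149.6 and 170.4 CPM in shoots (log2 fold change -7.93, adjusted p = 2.59e-08). Polygalacturonase BdiBd21-3.1G0692600 was higher in roots, at 107, 99.2 and 88.4 CPM in roots and 19.5, 19.4 and 16.3 CPM in shoots (log2 fold change 2.41, adjusted p = 1.83e-07). Of 18 cellulose synthases 8 were higher and 3 lower in roots. Catalytic subunit 5 (BdiBd21-3.1G0033500) was at 1010.4, 1002 and 971 CPM in roots and 608, 679.9 and 587 CPM in shoots, a small difference without overlap (log2 ratio 0.67, SE 0.16, adjusted p = 0.00364).

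All 29 tested water channels (aquaporins) were called, and 26 to 28 with a library left out. Of the 29, 18 were higher in roots (62.1%) and 11 lower (37.9%), against 28.4% and 27.7% of all tested genes. The summed level was 5867 to 7476 CPM in roots and 3279.8 to 3633 CPM in shoots. Of 11 plasma membrane (PIP) genes 8 were higher in roots, among them PIP2-1 (BdiBd21-3.1G0380300) at 1236, 1227 and 1169 CPM in roots and 427, 489.9 and 398 CPM in shoots (log2 ratio 1.47, SE 0.25, adjusted p = 3.38e-04). PIP2-7 (BdiBd21-3.4G0509600, chromosome 4, 41990442 to 41992066) was shoot-high at 7.47, 11.5 and 20.9 CPM in roots and 1064, 1100.5 and 1114 CPM in shoots (log2 ratio -6.37, SE 0.39, adjusted p = 1.07e-07). Vacuolar (TIP) genes were divided, with 5 higher and 4 lower of 9. TIP1-1 (BdiBd21-3.1G1005600, chromosome 1, 72845339 to 72847749) was at 1464, 1945 and 2124 CPM in roots and 478, 574 and 475 CPM in shoots, higher in every root library (log2 ratio 1.86, SE 0.18, adjusted p = 3.34e-06). NOD26-like (NIP) genes had 3 higher, 1 of them at least 4-fold, and 4 lower, 3 at least 4-fold, of 7. NIP2-1 (BdiBd21-3.3G0782100), named for a channel that takes up silicon in rice, was at 184, 349.7 and 395 CPM in roots and 12.1, 4.65 and 6.79 CPM in shoots (log2 ratio 5.30, SE 0.40, adjusted p = 8.68e-07).

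Nitrogen genes went both ways, with 42 of 104 tested genes higher in roots (40.4%) and 35 lower (33.7%). All 3 tested nitrate and nitrite reductases were higher in roots, with nitrite reductase (BdiBd21-3.3G0767200) at 525, 858 and 717 CPM in roots and 336, 432 and 465 CPM in shoots (log2 ratio 0.77, SE 0.21, adjusted p = 0.00739). The nitrate transporter-activating protein 2.1 (BdiBd21-3.3G0632700), a partner of high-affinity uptake, was at 16.8, 30.7 and 25.1 CPM in roots and 2.16, 1.63 and 0.431 CPM in shoots (log2 ratio 4.09, SE 0.62, adjusted p = 2.33e-04). Only 3 of 9 genes of the high-affinity group passed the filter on low counts, of which 2 were higher in roots and none lower. Glutamine and glutamate synthases had 3 higher and 4 lower of 7. Cytosolic glutamine synthetase 1-2 (BdiBd21-3.1G0937700, chromosome 1, 68734378 to 68738413), which captures ammonium, was at 959, 2339 and 1762 CPM in roots and 149, 112 and 131 CPM in shoots, with root replicate 1 the lowest of its group (log2 ratio 3.69, SE 0.49, adjusted p = 7.42e-05). Ferredoxin-dependent glutamate synthase (BdiBd21-3.1G0249400), the plastid partner enzyme that also recycles photorespiratory ammonium, was the reverse at 405, 698 and 655 CPM in roots and 2084, 2043 and 2161 CPM in shoots (log2 ratio -1.84, SE 0.21, adjusted p = 1.29e-05). The broad NRT1/PTR transporter family showed no lean, with 31 higher and 26 lower of 81. Ammonium transporters had 2 higher and 3 lower of 5. The most counted of them, ammonium transporter 1 member 1 (BdiBd21-3.5G0198500), was lower in roots (log2 ratio -0.55, SE 0.19, adjusted p = 0.0267). That call was lost without root replicate 1 (adjusted p = 0.0847) or shoot replicate 1 (0.0578).

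Phosphate, sulfate and potassium transport as a list was balanced, with 23 higher (34.3%) and 25 lower (37.3%) of 67 tested genes. All tested genes were also evenly split, at 28.4% and 27.7%. Single genes were not. PHO1-2 (BdiBd21-3.3G0727000, chromosome 3, 55307276 to 55313734), which loads phosphate into the xylem in rice, was at 315, 259 and 222 CPM in roots and 27.4, 15.7 and 16.2 CPM in shoots (log2 ratio 3.75, SE 0.24, adjusted p = 1.19e-07). The plastid phosphate transporter 2-1 (BdiBd21-3.3G0630700) was at 6.25, 6.25 and 11.1 CPM in roots and 144, 132 and 153 CPM in shoots, lower in roots (log2 ratio -4.19, SE 0.23, adjusted p = 4.00e-08). Sulfate transporters gave 6 lower and 3 higher of 10.

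Iron and zinc genes went both ways, and some differed strongly between replicates. Of 59 tested genes 28 were higher in roots and 18 lower, with a median log2 fold change of 0.42. Of 10 nicotianamine synthases and aminotransferases, the enzymes that lead to mugineic acids, 8 were higher in roots and 2 lower. The 5 mugineic acid dioxygenases gave 2 higher and 1 lower, with a median of -0.23. Yellow stripe-like transporters, the family that takes up iron complexes, had 4 higher and 6 lower of 16, with a median of -0.28. The 2'-deoxymugineic-acid dioxygenase (BdiBd21-3.4G0605300, chromosome 4, 47469081 to 47470892), which hydroxylates the iron chelator, was at 2965, 1487 and 1425 CPM in roots and 85.6, 0.465 and 0.216 CPM in shoots (log2 ratio 6.09, SE 1.64, adjusted p = 0.00963). Nicotianamine synthase 2 (BdiBd21-3.3G0143100, chromosome 3, 8878688 to 8880073) was at 1157, 166 and 147 CPM in roots and 24.2, 0.0929 and 0 CPM in shoots (log2 ratio 5.92, SE 1.66, adjusted p = 0.0116). In both genes replicate 1 was the highest library of its organ, in roots and in shoots, while the organs did not overlap. Both genes stayed called without any single library, but both calls were lost in a fit of the week 2 libraries alone (adjusted p = 0.0749 for the dioxygenase and 0.0736 for the synthase). For the dioxygenase the log2 fold change was 12.41 without shoot replicate 1 and 5.45 without shoot replicate 2 or 3. For the synthase it was 4.27 without root replicate 1, 13.09 without shoot replicate 1, and 5.28 and 5.29 without shoot replicates 2 and 3. Ferritin-1 (BdiBd21-3.4G0622400), the plastid iron store, had the reverse order of replicates in shoots, where replicate 1 was lowest, at 73.5, 97.6 and 89.6 CPM in roots and 174, 459 and 449.9 CPM in shoots (log2 ratio -2.05, SE 0.38, adjusted p = 8.73e-04). The vacuolar iron transporter homolog 5 (BdiBd21-3.5G0354800) was even across replicates at 73.7, 70.5 and 70.6 CPM in roots and 18.9, 19.9 and 16.8 CPM in shoots (log2 ratio 1.95, SE 0.14, adjusted p = 2.75e-07).

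Housekeeping and growth genes differed little in size. Of 60 proteasome subunit genes, which form the protein-degrading complex, 40 were higher in roots and 2 lower, yet the median was only 0.38 and none of the root-high genes passed the test against a fold change of 2, which both root-low genes passed. Regulatory subunit 2 homolog A (BdiBd21-3.3G0046700) was at 299.9, 304 and 293 CPM in roots and 244, 245 and 248 CPM in shoots (log2 ratio 0.28, SE 0.08, adjusted p = 0.00745), and its call was lost without shoot replicate 3 (adjusted p = 0.0521). Of 49 core histone genes 1 was higher and 7 lower in roots, 16.3% called against the background of 56.1%. A fit of the week 2 libraries alone called 25, of which 22 were lower in roots. Histone H3.3 (BdiBd21-3.1G0663100) was at 333, 373 and 345 CPM in roots and 465, 427 and 413 CPM in shoots with adjusted p = 0.0365, a call that was lost with replicate pairs as a block (adjusted p = 0.0624), with upper-quartile scaling (0.0512) and without root replicate 1 (0.0922), root replicate 3 (0.0879) or shoot replicate 1 (0.0860).

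Of 93 cyclin, cyclin-dependent kinase, kinesin and tubulin genes 23 were higher (24.7%) and 11 lower (11.8%) in roots. Both shares lay below those of all tested genes, 28.4% and 27.7%. The week 2 libraries alone gave 35 higher and 23 lower. Tubulins, the units of microtubules, had 7 of 13 higher in roots, which became 2 with replicate pairs as a block. Tubulin alpha-1 (BdiBd21-3.1G0136800) was at 2317, 2223 and 2304 CPM in roots and 1387, 1619 and 1342 CPM in shoots with adjusted p = 0.016, but 0.0581 in the block fit, 0.0625 without shoot replicate 1 and 0.0789 without shoot replicate 3. The most counted gene under a cyclin name, Cyclin-B1-2 (BdiBd21-3.3G0719400), lists a proteasome maturation factor (UMP1) domain and no cyclin domain in the table, so its role is uncertain. It was at 90.3, 94.9 and 81.6 CPM in roots and 58.3, 62.4 and 67.8 CPM in shoots (log2 ratio 0.50, SE 0.11, adjusted p = 0.00215). Kinesin KIN-4A (BdiBd21-3.4G0115700), a motor protein on microtubules, was at 278, 259.7 and 233 CPM in roots and 163, 152 and 126 CPM in shoots (log2 ratio 0.81, SE 0.21, adjusted p = 0.00556).

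Hormone genes were divided within each pathway. Of 120 auxin genes 46 were higher in roots and 45 lower. Aux/IAA repressors, which hold back auxin response, had 15 higher and 4 lower of 25. The most counted auxin gene of roots and that of shoots both belong to this family and differed in direction. IAA13 (BdiBd21-3.1G0123300) was at 404, 379 and 363 CPM in roots and 66.7, 78.3 and 68.9 CPM in shoots (log2 ratio 2.42, SE 0.22, adjusted p = 2.54e-06) and IAA17 (BdiBd21-3.2G0401300) at 218, 192 and 193 CPM in roots and 483, 438 and 428 CPM in shoots (log2 ratio -1.16, SE 0.12, adjusted p = 5.28e-06). SAUR genes, small auxin-induced genes, leaned to the shoot with 22 lower and 6 higher of 39. Efflux carriers had 4 higher and 3 lower of 9. The carrier component 1a (BdiBd21-3.3G0783600) was at 164, 148 and 145 CPM in roots and 135, 117 and 128 CPM in shoots and not called (adjusted p = 0.0897, but 0.0455 and called in the week 2 libraries alone).

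Cytokinin and gibberellin genes gave 25 higher and 25 lower of 75 (33.3% each), near the 28.4% and 27.7% of all tested genes. Gibberellin 3-beta-dioxygenase 4 (BdiBd21-3.3G0472200), of the step that makes the active hormone, was at 24.8, 55.3 and 51.8 CPM in roots and 3.27, 2.70 and 3.50 CPM in shoots, higher in roots (log2 ratio 3.80, SE 0.33, adjusted p = 1.90e-06). Cytokinin dehydrogenase 11 (BdiBd21-3.3G0497100), which breaks cytokinin down, was at 12.1, 15.2 and 15.7 CPM in roots and 40.7, 53.8 and 65.8 CPM in shoots, lower in roots (log2 ratio -1.90, SE 0.23, adjusted p = 2.48e-05). The growth repressor DELLA RHT-1 (BdiBd21-3.1G0148400) overlapped between organs at 128, 137 and 140.3 CPM in roots and 135, 139 and 127 CPM in shoots (adjusted p = 0.929). The jasmonate list had 18 higher (41.9%) and 9 lower (20.9%) of 43. It takes lipoxygenases by name, so it can hold members that do not act in jasmonate synthesis, and its lipoxygenases went both ways. The 9-lipoxygenase 4 (BdiBd21-3.1G0155600) was at 650.5, 612 and 633 CPM in roots and 167, 159 and 155 CPM in shoots (log2 ratio 1.98, SE 0.11, adjusted p = 2.65e-08). The plastid lipoxygenase 2.3 (BdiBd21-3.3G0092600), of the type that opens jasmonate synthesis, was at 80.7, 93.5 and 86.9 CPM in roots and 410.5, 568 and 552 CPM in shoots (log2 ratio -2.55, SE 0.23, adjusted p = 1.87e-06). Of 48 abscisic acid, dehydrin and LEA genes 19 were higher (39.6%) and 11 lower (22.9%) in roots. A gene with an ABA/WDS induced domain (BdiBd21-3.4G0347500) was at 1697, 1426 and 1062 CPM in roots and 419, 418 and 329 CPM in shoots, higher in roots (log2 ratio 1.84, SE 0.24, adjusted p = 4.06e-05).

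The defence list was more often root-high than shoot-high, but not in all its families. Of 71 chitinase, pathogenesis-related and protease inhibitor genes 38 were higher in roots and 15 lower. Pathogenesis-related and thaumatin-like proteins gave 17 higher and 4 lower of 32, and protease inhibitors 14 and 3 of 21. Chitinases were divided at 7 and 8 of 18, with a summed level of 322 to 349 CPM in roots and 442 to 1364 CPM in shoots. A PR-1 type gene (BdiBd21-3.1G0165000, chromosome 1, 9416966 to 9417828), a marker of defence, was at 1272, 952 and 1217 CPM in roots and 42.8, 1.12 and 12.2 CPM in shoots (log2 ratio 5.94, SE 1.03, adjusted p = 6.74e-04). Its shoot libraries were uneven, with replicate 1 highest and replicate 2 lowest, but stayed below all roots. The log2 fold change was 7.43 without shoot replicate 1 and 5.33 without shoot replicate 2. Chitinase 8 (BdiBd21-3.3G0422200), which attacks fungal walls, was the opposite at 39.7, 68.3 and 65.3 CPM in roots and 259.6, 565 and 1085 CPM in shoots (log2 ratio -3.46, SE 0.49, adjusted p = 1.52e-04). Of 321 NB-ARC immune receptor genes 144 were higher in roots (44.9%) and 83 lower (25.9%). The list follows the domain, and its most counted gene in roots carries the name of a GTP-binding protein, SAR1A (BdiBd21-3.2G0167000), at 131, 125 and 124 CPM in roots and 75.9, 82.6 and 76.7 CPM in shoots (log2 ratio 0.69, SE 0.15, adjusted p = 0.00185). RF9 (BdiBd21-3.2G0504600) was among the latter at 40.7, 33.5 and 34.2 CPM in roots and 123, 115 and 130.1 CPM in shoots (log2 ratio -1.76, SE 0.13, adjusted p = 2.24e-07). Receptor-like kinases stood near the background of all tested genes (28.4% higher and 27.7% lower), with 170 higher (29.5%) and 186 lower (32.2%) of 577. Within them, leucine-rich repeat kinases gave 52 higher and 32 lower of 147, and lectin kinases 39 higher and 65 lower of 161. FERONIA (BdiBd21-3.1G0854800), a wall-sensing kinase, was at 191, 196 and 212 CPM in roots and 137, 147 and 134 CPM in shoots (log2 ratio 0.52, SE 0.10, adjusted p = 0.00114). Cysteine-rich receptor-like kinase 1 (BdiBd21-3.4G0342200) was shoot-high at 53.4, 74.9 and 117 CPM in roots and 407, 390.2 and 430.3 CPM in shoots (log2 ratio -2.32, SE 0.26, adjusted p = 1.61e-05).

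Among the transcription factor families counted here, bZIP genes were most often root-high, with 44 higher (59.5%) and 11 lower (14.9%) of 74. Over all tested genes the shares were 28.4% and 27.7%. Most of these differences were small, since 8 of the former reached 4-fold. Ocs element-binding factor 1 (BdiBd21-3.4G0063600) was at 597, 602 and 540.5 CPM in roots and 233, 224 and 184 CPM in shoots (log2 ratio 1.44, SE 0.13, adjusted p = 1.61e-06). CPRF2 (BdiBd21-3.4G0031800), named as light-inducible, was shoot-high at 16.2, 23.1 and 25.3 CPM in roots and 484, 438 and 528 CPM in shoots (log2 ratio -4.49, SE 0.25, adjusted p = 2.99e-08). AP2/ERF genes had 43 higher (39.4%) and 14 lower (12.8%) of 109, with 52.3% called in all against 56.1% of all tested genes. In bHLH genes 43 (44.3%) and 30 (30.9%) of 97 were called, and in NAC genes 30 (36.1%) and 19 (22.9%) of 83. WRKY genes, at 25 and 25 of 82 (30.5% each), and MYB genes, at 61 (32.1%) and 60 (31.6%) of 190, stood near the background. MADS-box genes had 34 of 80 members tested, with 9 higher (26.5%) and 11 lower (32.4%), also near it. MADS27 (BdiBd21-3.5G0157300) was at 50.8, 50.4 and 45.2 CPM in roots and 9.95, 5.34 and 5.93 CPM in shoots (log2 ratio 2.79, SE 0.22, adjusted p = 4.95e-07), and MADS55 (BdiBd21-3.3G0770100) was lower in roots at 26.0, 23.5 and 21.5 CPM in roots and 55.1, 52.6 and 50.5 CPM in shoots (log2 ratio -1.15, SE 0.11, adjusted p = 2.00e-06). The MYB-related MYBAS2 (BdiBd21-3.2G0803300) was at 326, 529 and 722 CPM in roots and 158, 135 and 139.9 CPM in shoots, higher in roots (log2 ratio 1.87, SE 0.29, adjusted p = 2.01e-04).

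In several stress-linked factors replicate 1 stood out in both organs. NAC67 (BdiBd21-3.1G0054700) was at 279, 42.1 and 42.1 CPM in roots and 487, 189.8 and 183 CPM in shoots, so the replicate 1 root library lay above shoot replicates 2 and 3. It was not called (log2 fold change -1.24, adjusted p = 0.183). It was lower in roots at -1.70 with replicate pairs as a block (adjusted p = 0.0117) and at -2.76 without root replicate 1 (0.00274). ERF073 (BdiBd21-3.1G0973400) was at 250.3, 131 and 115 CPM in roots and 489.6, 232 and 215 CPM in shoots with adjusted p = 0.0681, which became 0.00389 in the block fit, 0.0299 with DESeq2, 0.0419 with limma-voom, 0.0170 without root replicate 1 and 0.0391 without shoot replicate 3. WRKY24 (BdiBd21-3.4G0022900) was at 290.3, 188 and 223 CPM in roots and 419, 184 and 192 CPM in shoots and overlapped between organs (adjusted p = 0.662). In all 3 genes replicate 1 was the highest library of both organs.

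Genes without a description made up 14627 of the table and 6796 of those tested. They were called less often, at 44.1%, than the described genes at 60.3%; the difference between these shares was not tested. The share called varied little by chromosome, from 55.0% on chromosome 4 to 56.6% on chromosome 1.

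The organ difference of week 2 was compared with that of week 4, and plastid genes were prominent among the changes. The root minus shoot difference itself differed between the weeks for 2254 genes (8.52% of those tested), of which 517 (1.95%) were more positive and 1737 (6.56%) more negative at week 2. With replicate pairs as a block, 256 and 776 genes were called. That block also joins week 4 libraries by number, where same-numbered libraries did not deviate together (r = -0.235, 0.0826 and -0.215). For plastid ribosomal proteins 35 of 40 were called and 34 with the block, all with a more negative difference at week 2, by a median of -1.19 on the log2 scale. For photosystem and electron transport genes the counts were 36 of 50 and 11 with the block, for light-harvesting genes 16 of 26 and 9, and for chlorophyll synthesis 22 of 29 and 17. Cytosolic ribosomal proteins had no such call in either fit. In the most counted antenna gene the change lay on the root side. Chlorophyll a-b binding protein 1 (BdiBd21-3.4G0519700) was at 398 ± 132 CPM in roots at week 2 and 1591 ± 109 CPM at week 4, and at 11909 ± 1316 CPM and 11703 ± 1533 CPM in shoots (SD, n = 3). Its week 2 difference was more negative by -2.03 on the log2 scale (SE 0.34, adjusted p = 0.00531, or 0.0426 with the block).

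**Figure D5:**
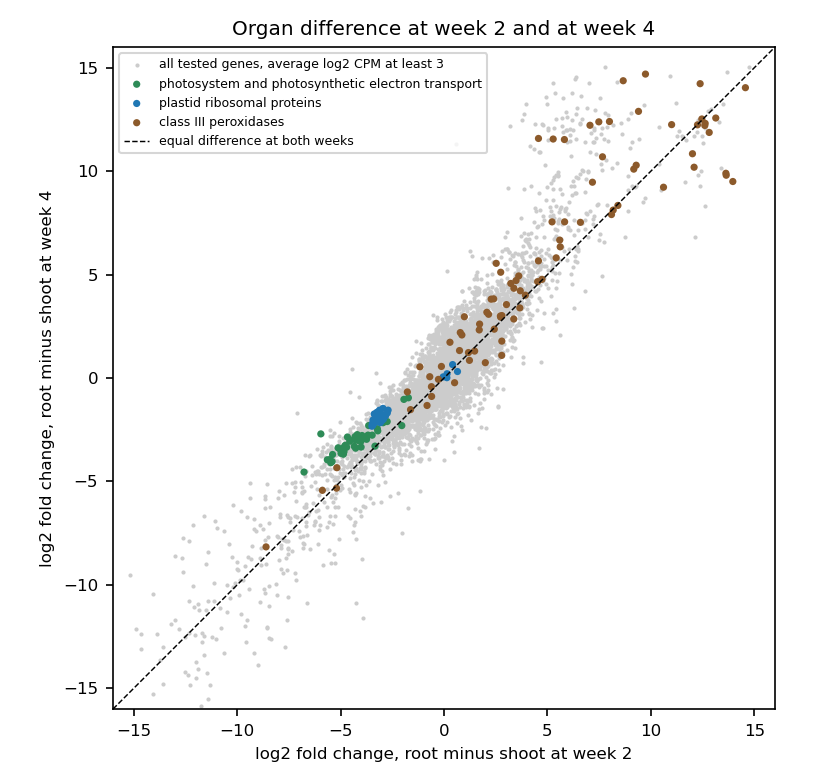
Log2 fold change of root minus shoot at week 4 (vertical axis) against week 2 (horizontal axis) for tested genes of average log2 CPM 3 or more, with 3 lists in colour and the dashed line of equal difference; values beyond about 5 often rest on an organ with almost no read. Plastid ribosomal proteins form a tight group at a week 2 median of -3.11, above the line, and photosystem genes lie above it as well.

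The genes with the most positive and most negative change of the organ difference were not of one function. ABC transporter B family member 4 (BdiBd21-3.2G0605400) was at 63.2 ± 7.17 CPM in roots and 4.48 ± 1.56 CPM in shoots at week 2, and at 66.7 ± 11.7 CPM and 40.3 ± 12.2 CPM at week 4. Its difference was larger at week 2 by 3.08 (SE 0.36, adjusted p = 0.00117). Glutathione S-transferase GSTU1 (BdiBd21-3.1G0086800), of a detoxifying family, was root-high at week 2 with 266, 263 and 216 CPM in roots and 65.2, 60.4 and 70.6 CPM in shoots and shoot-high in means at week 4, with 124 ± 43.4 CPM in roots and 251 ± 59.5 CPM in shoots. The change was 2.93 (SE 0.34, adjusted p = 0.00105). ABC transporter C family member 3 (BdiBd21-3.2G0059700) was at 32.7, 29.4 and 33.5 CPM in roots and 120.3, 44.0 and 42.5 CPM in shoots at week 2, where shoot replicate 1 stood above the others. Its week 2 call (log2 fold change -1.11, adjusted p = 0.0232) was lost without root replicate 1 (0.0614), 2 (0.0710) or 3 (0.0543) and, at -0.47, without shoot replicate 1 (0.0548), and in the week 2 libraries alone (0.0829), while the change between weeks was 2.79 (adjusted p = 0.011). At the negative end, a subtilisin-chymotrypsin inhibitor (BdiBd21-3.2G0444500), a GDSL esterase (BdiBd21-3.1G0259000) and an AT-hook protein (BdiBd21-3.5G0260700) were root-high at week 2, at 91.2 ± 28.6 CPM, 128 ± 7.82 CPM and 97.7 ± 9.88 CPM in roots. Shoots of week 2 had traces of them (2.23 ± 1.82 CPM, 1.52 ± 0.951 CPM and 1.34 ± 0.781 CPM) and shoots of week 4 had no read, so the fitted sizes of these 3 changes depend on the prior count.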

How the data were processed

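Counts per gene are the authors' deposited values, whole numbers that were not normalized. Gene positions and best-match names come from the deposited table, so a name states sequence similarity. The submitters' processing notes name HISAT2 2.0.5, featureCounts 1.5.0-p3 and HTSeq 0.6.1 without role or order. The sources used here do not give the genome build, the strand setting or the treatment of reads that match several places. Per the labels, library preparation was either directional or non-directional.

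Counts were analysed with edgeR 4.0.16 in R 4.3.3. Genes were kept by filterByExpr (minimum count 10, minimum total 15), libraries scaled by TMM, and 1 model with 1 mean for each of the 4 groups was fitted to all 12 libraries. Quasi-likelihood F tests with robust estimates and a prior count of 0.125 gave log2 fold changes, and p-values were adjusted by Benjamini-Hochberg over 26463 genes (threshold 0.05). The standard error (SE) is the size of the log2 value over the square root of its F, and can be too small against a group with few counts. A fold against a group with 0 counts used a floor of 3 counts over the group, 0.0437 CPM in roots and 0.0500 CPM in shoots, which covers counting error only. An exact permutation test of 3 against 3 libraries cannot go below 0.10 and was not used. Steps were tested on simulated data.

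Functional lists were keyword matches on names and domains (47 lists), with 72 subgroups by role added after values were seen. Named genes are the most counted member in roots and in shoots of each list, the most counted of each subgroup, the 5 highest and 5 lowest fold changes (average log2 CPM of at least 5, no overlap), and the 3 highest and 3 lowest changes between weeks. Genes of the 2 longest runs and genes marked as exceptions were chosen after their values were seen. Comparison, lists and rules were chosen with earlier results of these data known.

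Same-numbered root and shoot libraries of week 2 deviated together from their group means (r = 0.278, 0.124 and 0.226 across 15024 genes). Replicate 1 of either organ went against replicates 2 and 3 of the other (r = -0.262 to -0.122). Root replicate 2 was closer to shoot replicate 3 (r = 0.192) than to shoot replicate 2, so these values do not settle how replicates 2 and 3 pair. The replicate number was used as the block, and block values are printed where a call changed. At week 4 the same-numbered correlations were -0.235, 0.0826 and -0.215, and root replicate 3 went with shoot replicate 1 at 0.330. The block joined libraries by number at week 4 too. Block values for the difference between weeks therefore rest on a pairing that the week 4 libraries did not show. Alternatives were RLE and upper-quartile scaling, TMM without the 50 most counted genes, other filters on low counts, DESeq2 1.42.0, limma-voom (limma 3.58.1), the week 2 libraries alone, the replicate block, a threshold of 0.01, a test against a fold change of 2, and leaving out each library.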

Additional observations from a re-analysis of the deposited data

Results flagged for a closer look

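For 23 of the named genes the root minus shoot difference itself differed between week 2 and week 4 by the interaction test of the edgeR model, with values on the log2 scale as week 2 minus week 4. Of these, 17 were more negative and 6 more positive at week 2. With replicate pairs as a block 7 stayed called, and 11 stayed called when each library of week 2 was left out in turn. The block pairs week 4 libraries by number as well, and these did not deviate together, so the block values below carry that limit. No cause of these differences was tested.

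Photosynthesis and plastid genes were more negative at week 2: chlorophyll a-b binding protein 1 (BdiBd21-3.4G0519700) by -2.03 (adjusted p = 0.00531, block 0.0426) and 50S ribosomal protein L12-2 (BdiBd21-3.2G0583400) by -1.31 (adjusted p = 0.00193, block 0.0221). Oxygen-evolving enhancer protein 1 (BdiBd21-3.1G0753800) changed by -1.82 (adjusted p = 0.0173, block 0.0588) and RuBisCO small chain PWS4.3 (BdiBd21-3.4G0116800) by -1.51 (adjusted p = 0.0188, block 0.0913). The ChlH subunit (BdiBd21-3.1G0251200) gave -0.93 (adjusted p = 0.0221, block 0.0944), zeaxanthin epoxidase (BdiBd21-3.5G0147500) -1.13 (adjusted p = 0.0149, block 0.0778) and the ADP-glucose pyrophosphorylase large subunit (BdiBd21-3.1G0129800) -1.27 (adjusted p = 0.00917, block 0.0602). The light-linked genes phototropin-2 (BdiBd21-3.5G0084800) at -0.72 (adjusted p = 0.0396, block 0.121) and CONSTANS-LIKE 16 (BdiBd21-3.1G0151100) at -1.12 (adjusted p = 0.0499, block 0.0727) lay near the threshold.

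Other genes that were more negative at week 2 were a polygalacturonase (BdiBd21-3.1G0692600) at -1.10 (adjusted p = 0.0148, block 0.0275), aquaporin PIP2-7 (BdiBd21-3.4G0509600) at -1.66 (adjusted p = 0.0443, block 0.0719) and HOX5 (BdiBd21-3.3G0471300) at -0.73 (adjusted p = 0.0384, block 0.0944). WUSCHEL-related homeobox 8 (BdiBd21-3.2G0683100) was at -0.87 (adjusted p = 0.0491, block 0.0747) and wall-associated receptor kinase 2 (BdiBd21-3.5G0050100) at -1.39 (adjusted p = 0.0499, block 0.145). The 3 genes without a read in week 4 shoots had fitted values of -8.41 (BdiBd21-3.2G0444500, adjusted p = 0.0304, block 0.129), -8.15 (BdiBd21-3.1G0259000, adjusted p = 0.00404, block 0.0527) and -7.61 (BdiBd21-3.5G0260700, adjusted p = 0.00429, block 0.0604).

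Genes more positive at week 2 were ABC transporter B family member 4 (BdiBd21-3.2G0605400) at 3.08 (adjusted p = 0.00117, block 0.012), GSTU1 (BdiBd21-3.1G0086800) at 2.93 (adjusted p = 0.00105, block 0.0185) and ABC transporter C family member 3 (BdiBd21-3.2G0059700) at 2.79 (adjusted p = 0.011, block 0.0248). Smaller values came from cytosolic invertase 1 (BdiBd21-3.3G0604400) at 0.55 (adjusted p = 0.0383, block 0.117), the auxin efflux carrier component 1a (BdiBd21-3.3G0783600) at 0.68 (adjusted p = 0.037, block 0.0918) and SAUR32 (BdiBd21-3.3G0402700) at 1.03 (adjusted p = 0.0241, block 0.0493).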

How the results depend on the processing

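Of 144 named genes, 127 were called and 94 kept their direction and side of the threshold under every alternative. The replicate block changed the calls given beside the results and those of BdiBd21-3.3G0656600 (adjusted p = 0.0796), BdiBd21-3.1G0951300 (0.0644) and BdiBd21-3.2G0480000 (0.0643), moved the tubulin count from 8 to 3 and changed no other call of a named gene in the week 2 contrast. It gave 1032 genes for the difference between weeks, against 2254 without it.

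Counts that moved by more than 1.5 times are as follows, and the cause was not tested. The difference between weeks gave 3806 genes with DESeq2, 614 at an adjusted p under 0.01 and 61 in the test against a fold change of 2; it could not be fitted from the week 2 libraries alone. Upper-quartile scaling called 25 cytosolic ribosomal genes. The plastid-genome copies gave 53 calls without a filter and 54 with DESeq2. The week 2 libraries alone called 25 histone and 58 cell division genes. At an adjusted p under 0.01 the calls were 6 for cytosolic ribosomal genes, 3 for histones, 18 for cell division and 17 for abscisic acid genes. A test against a fold change of 2 asks for more by construction and gave 6955 genes (2953 higher and 4002 lower in roots). By list it gave 3 cytosolic ribosomal, 2 proteasome, 1 histone, 7 cell division, 4 cellulose synthase, 12 xyloglucan, 22 phosphate, sulfate and potassium, 28 iron and zinc, 47 sugar, 53 auxin, 33 cytokinin and gibberellin, 16 jasmonate, 15 abscisic acid, 203 receptor-like kinase, 133 NB-ARC, 27 NAC, 32 homeobox, 13 MADS-box, 45 bHLH, 20 bZIP, 31 light and clock, 75 MYB and 4 floral and pollen genes. The share of calls higher in roots was 50.6%, against 51.2%, 52.4% and 48.2% under the other scalings and 42.5% in the test against a fold change of 2.

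Leaving out 1 library, the week 2 contrast called 13379 to 13949 genes and the difference between weeks 1318 to 1937, with cytosolic ribosomal calls from 7 to 16 and histone calls from 5 to 10. Some uncalled genes near 0 changed sign. RHT-1 was at -0.029 without the 50 most counted genes and at -0.074 to 0.055 with a library left out. With a library left out, WRKY24 ranged from -0.43 to 0.29, SAUR32 from -0.32 to 0.031 and the glutelin gene from -0.035 to 0.18. Depth limits genes with few reads in 1 organ, for which folds are bounds or depend on the prior count.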
